A study of Mus musculus with 6 samples.

Results

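The genes described here are 31 genes of cholesterol and fatty acid synthesis, most of them under the control of the sterol regulatory element binding proteins (SREBPs). They were taken by gene symbol from a table of 21825 genes measured in group 2 innate lymphoid cells (ILC2s), and all 31 were found. They comprise 4 regulators, 18 genes of the sterol arm and 9 genes of the fatty acid arm. ILC2s are tissue lymphocytes that make type 2 cytokines. The cells were sorted from lungs of BALB/c mice aged 6 weeks, and every mouse had received recombinant IL-33 by the intraperitoneal route, 1 µg in each of 3 injections. All cultures then received 10 ng/mL of IL-2 and the same dose of IL-7 and ran for 48 h. The 3 libraries numbered 4 to 6 came from cultures with 40 ng/mL TNFa, a cytokine that activates NF-kB, and the 3 numbered 1 to 3 from cultures with PBS as control. The label of PBS 2 marks it as a repeat.

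SREBPs are made as precursors held in the endoplasmic reticulum. When membrane sterol is low, the escort protein SCAP carries them to the Golgi, where proteases release the active transcription factor, and INSIG proteins hold the complex back when sterol is plentiful. SREBP-2 acts mainly on genes of cholesterol synthesis and uptake, and SREBP-1 mainly on genes of fatty acid synthesis and desaturation. Dividing lymphocytes need both products for new membrane.

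Total counts per library ranged from 25089415 to 32487004. TNFa 5 stood apart: its correlations of log2 CPM (counts adjusted for library size) with the other libraries were 0.970 to 0.972, against 0.982 to 0.987 among the rest, and it held the lowest value of 29.4% and the highest of 26.4% of all tested genes. ILC2 markers were abundant in every library, with Il5 at 4520 ± 448 CPM with PBS and 5442 ± 308 with TNFa, and Il2ra at 1841 ± 216 and 2228 ± 155 (mean ± SD, n = 3 each, as throughout). The 13 ILC2 markers summed to 10060 to 11400 CPM with PBS and 10600 to 11660 with TNFa. Fitted values were lower with TNFa for 8 of the 13 (49.4% of all tested genes) and higher for 5. Libraries did not overlap for 6 of the lower markers (8.35% of all tested genes). The 6 include Gata3 (978 ± 71.9 and 705 ± 52.1 CPM, edgeR adjusted p = 0.199), Il1rl1 (616 ± 64.9 and 425 ± 49.8, adjusted p = 0.221) and Arg1 (625 ± 23.5 and 426 ± 32.2, adjusted p = 0.101). Nor did the libraries overlap for 2 of the higher markers, Il5 and Areg (138 ± 4.65 and 170 ± 12.5 CPM), against 6.85% of all tested genes. Thy1 was low, at 2.76 ± 0.656 and 3.35 ± 1.04 CPM, and Icos passed the test over all genes, at 888 ± 69.0 and 517 ± 33.1 CPM (edgeR adjusted p = 0.0363). Summed mast cell and basophil markers ranged from 1323 to 1461 CPM with PBS and from 1370 to 1556 with TNFa, led among the 9 by Tpsab1 (703 ± 66.0 and 763 ± 53.5 CPM) and Cma1 (218 ± 28.5 and 226 ± 16.5). The 7 T cell markers summed to 89.7 to 101 CPM with PBS and 76.6 to 86.2 with TNFa, and the 4 of 5 B cell markers in the table to 20.2 to 20.6 and 13.8 to 16.5, so both sums were lower with TNFa without overlap. The 8 epithelial markers summed to 45.6 to 57.9 and 35.2 to 114 CPM, with Scgb1a1 at 81.0 CPM in TNFa 4 and 0.187 in TNFa 5, 7 of 8 myeloid markers to 36.3 to 91.0 and 8.71 to 47.5, and 3 of 5 stromal and endothelial markers to 81.2 to 123 and 79.1 to 149.8. The part of such cells in the values below was not tested, and fewer cells of a type cannot be told apart here from less RNA per cell. Whether the libraries stem from different cultures or mice is not in the labels, so p-values measure only the spread between these libraries, which may be technical.

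Upstream sequences were compared first, because SREBPs and their partners bind there. RefSeq promoters (GRCm38.p6, the C57BL/6J reference) were matched by symbol for 24 of the 31 genes, and the 250 bases before each start site were searched on both strands, at any listed start of a gene. RefSeq and the deposited table place some starts differently. For 12 of the 24 genes even the outermost stretch ran past the start in the table, so part of it can lie inside the gene. The excess was 88 bases for Srebf2, 105 for Idi1 and 214 for Msmo1. For Acaca the only stretch lay past that start with all its 250 bases. The core of the sterol regulatory element was searched as TCACNCCAC and was present in 1 of the 24 genes, Hmgcs1, and in 1.19% of 10484 tested genes with a promoter. A shorter form, TCACNCCA, which lies inside the first and was chosen after the sequences were read, was present in 3 of 24, Hmgcs1, Msmo1 and Srebf2, against 4.07%. CCAAT is bound by NF-Y, a usual partner of SREBPs. It was present in 13 of 14 sterol arm genes, 3 of 4 regulators and 2 of 6 fatty acid genes, against 40.2% of tested genes. CCGCCC, an Sp1 motif, was present in 13 of 14, 4 of 4 and 2 of 6, against 61.3%. The searched stretches thus differed in letter content between the sterol and fatty acid arms, as a description with no test. For Dhcr7, CCAAT was found only in a stretch wholly past the start in the table. In Idi1, Cyp51 and Msmo1 every CCAAT match also lay past that start, as did the TCACNCCA match of Msmo1. The stretch of Acaca, wholly past the start in the table, held neither CCAAT nor CCGCCC. Genes with several listed starts had more room for a match. The 4 sequences below are shown because the results return to these genes: Srebf2, the gene of SREBP-2 (chr15:82147019-82147268, plus strand), Hmgcs1, HMG-CoA synthase (chr13:119690101-119690350, plus strand), Idi1, isopentenyl diphosphate isomerase (chr13:8885356-8885605, plus strand), and Acly, ATP citrate lyase (chr11:100528001-100528250, minus strand). They read 5′ to 3′ towards the start site, and capitals mark TCACNCCA and CCAAT or its complement ATTGG.
Srebf2: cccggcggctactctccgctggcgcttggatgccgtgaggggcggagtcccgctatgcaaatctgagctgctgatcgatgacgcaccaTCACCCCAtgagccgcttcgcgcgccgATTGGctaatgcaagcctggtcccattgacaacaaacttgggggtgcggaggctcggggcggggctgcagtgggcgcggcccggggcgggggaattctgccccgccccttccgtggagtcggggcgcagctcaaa
Hmgcs1: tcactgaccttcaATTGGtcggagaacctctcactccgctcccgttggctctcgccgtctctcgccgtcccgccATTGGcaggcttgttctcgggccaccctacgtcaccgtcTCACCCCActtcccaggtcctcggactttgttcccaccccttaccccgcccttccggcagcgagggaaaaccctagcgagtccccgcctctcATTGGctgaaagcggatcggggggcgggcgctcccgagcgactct
Idi1: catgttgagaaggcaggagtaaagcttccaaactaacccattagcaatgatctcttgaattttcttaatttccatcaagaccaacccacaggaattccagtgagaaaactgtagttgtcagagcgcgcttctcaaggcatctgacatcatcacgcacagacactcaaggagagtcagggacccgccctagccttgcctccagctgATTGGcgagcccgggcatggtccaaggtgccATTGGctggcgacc
Acly: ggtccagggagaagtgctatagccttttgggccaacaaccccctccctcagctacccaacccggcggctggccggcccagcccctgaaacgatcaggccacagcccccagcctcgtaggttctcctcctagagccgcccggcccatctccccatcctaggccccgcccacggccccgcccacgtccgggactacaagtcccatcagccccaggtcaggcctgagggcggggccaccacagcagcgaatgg
Counted from the start site, the TCACNCCA match began at -162 in Srebf2 and -137 in Hmgcs1. Hmgcs1 had 3 CCAAT matches, Idi1 2, Srebf2 1 and Acly 0, and both of those in Idi1 lay past the start in the table.

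Most of these genes were well expressed in lung ILC2s. Levels are compared between genes per length, as TPM (transcripts scaled to a common total, from counts divided by the exon length of the gene). That length joins all annotated exons, 17074 bases for Acaca, 10787 for Lss and 5817 for Dhcr7. It can exceed the length of the transcripts made, which would lower the TPM. In the sterol arm the highest levels with PBS were those of Ebp, a sterol isomerase, at 132 ± 7.35 TPM, Fdps, which makes farnesyl diphosphate, at 131 ± 1.67 TPM, and Idi1 at 114 ± 8.82 TPM. Ebp and Fdps did not differ beyond their spread. The lowest sterol arm level per length was that of Dhcr7, the last reductase of the pathway, at 12.6 ± 1.12 TPM. It was just under Hsd17b7, a sterol ketoreductase, at 14.2 ± 3.36, and these spreads overlapped too. In CPM with PBS the lowest of the arm was Mvk, at 16.4 ± 4.09 against 26.8 ± 1.57 for Dhcr7. In the fatty acid arm the range was far wider. Acly, which makes cytosolic acetyl-CoA, stood at 156 ± 13.7 TPM and Elovl5, an elongase of polyunsaturated chains, at 143 ± 15.9 TPM with PBS. Fatty acid synthase, Fasn, was at 61.8 ± 13.4 TPM, while Acaca, the acetyl-CoA carboxylase that supplies it, was at 2.89 ± 0.149 TPM.

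**Figure D1:**
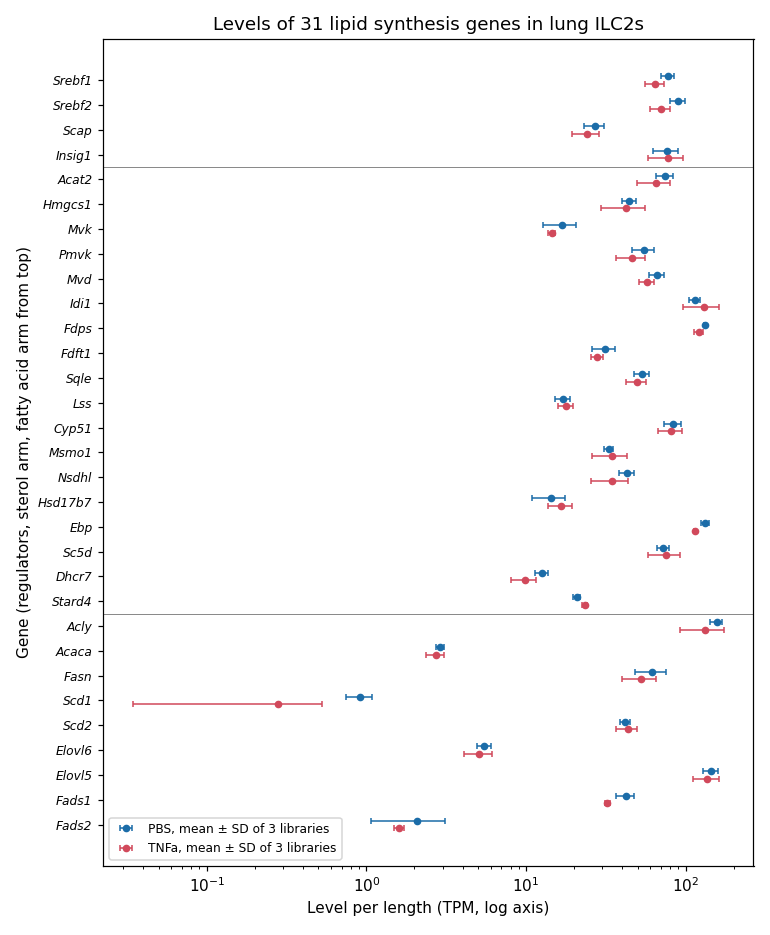
Level per length of each gene in TPM on a log axis, as mean ± SD of the 3 PBS (blue) and 3 TNFa (red) libraries, with horizontal lines between regulators, sterol arm and fatty acid arm. The sterol arm lies between 9.80 and 132 TPM in both groups, and the fatty acid arm reaches from 0.279 TPM for Scd1 with TNFa to 156 for Acly with PBS.

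The desaturases showed a clear order. Of the stearoyl-CoA desaturases, which put the first double bond into saturated chains, Scd2 was at 41.8 ± 3.21 TPM and Scd1 at 0.912 ± 0.169 TPM with PBS. Scd1 and Scd2 are similar genes whose reads were divided by estimation, so the level of Scd1 is uncertain. Of the desaturases of polyunsaturated fatty acids, Fads1 (delta-5) was at 42.1 ± 5.30 TPM and Fads2 (delta-6) at 2.08 ± 1.01. In both pairs 1 gene made up nearly all of the level. Ranked among 15660 tested genes by mean TPM over all 6 libraries, Acly was at 1246, Elovl5 at 1298 and Fdps at 1422, and Scd1 at 13977.

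The comparison asked whether TNFa changed expression of these genes. With p-values from the edgeR quasi-likelihood test, adjusted by the Benjamini-Hochberg method over 15719 genes, 0 of the 31 passed an adjusted p of 0.05, where 0.102% of all tested genes did. Their adjusted p-values ran from 0.462 to 0.981. At an unadjusted p under 0.05 there were 0 higher (3.68% of all tested genes) and 2 lower (4.63%), Srebf2 and Fads1, and DESeq2 and limma-voom also called 0. The 2 lower genes became 0 without PBS 2 or TNFa 4, 1 without PBS 1 or TNFa 6 and with upper-quartile scaling, 3 without PBS 3 and with limma-voom, and 4 without TNFa 5. The 0 higher became 1 without PBS 3 and 2 without TNFa 5. The background moved too. Over all genes tested in each fit, the share lower was 2.602% without PBS 2 and 4.688% without TNFa 4. It was 3.123% without PBS 1, 4.928% without TNFa 6 and 3.989% with upper-quartile scaling. It was 4.198% without PBS 3, 5.147% with limma-voom and 5.56% without TNFa 5. The share higher was 3.823% without PBS 3 and 5.23% without TNFa 5. The fitted value was lower with TNFa for 23 of the 31 and higher for 8, against 49.4% of all tested genes lower, and the median log2 fold change was -0.11 against 0.0047 over all tested genes. Under upper-quartile scaling, which moved the median of all tested genes to 0.038, 22 were lower, with Cyp51 at 0.014.

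The intervals show how large a change these libraries leave room for. For 29 of the 31 genes the 95% interval of the fold change lay inside 0.5 to 2, and for 23 it lay within 1.5-fold either way. The 2 exceptions to the wider bound were Scd1 (fold 0.323, 95% interval 0.0721 to 1.44) and Fads2 (0.806, 0.409 to 1.59), the genes with the fewest counts of the 31. No overlap between the 3 TNFa and 3 PBS libraries was seen for 5 genes, or 16.1%, against 15.2% of all tested genes. Stard4 was the 1 such gene higher with TNFa (6.85% of all tested genes), and Srebf2, Nsdhl, Dhcr7 and Scd1 were the 4 lower (8.35%). These shares are near the background and were not a result about these genes.

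**Figure D2:**
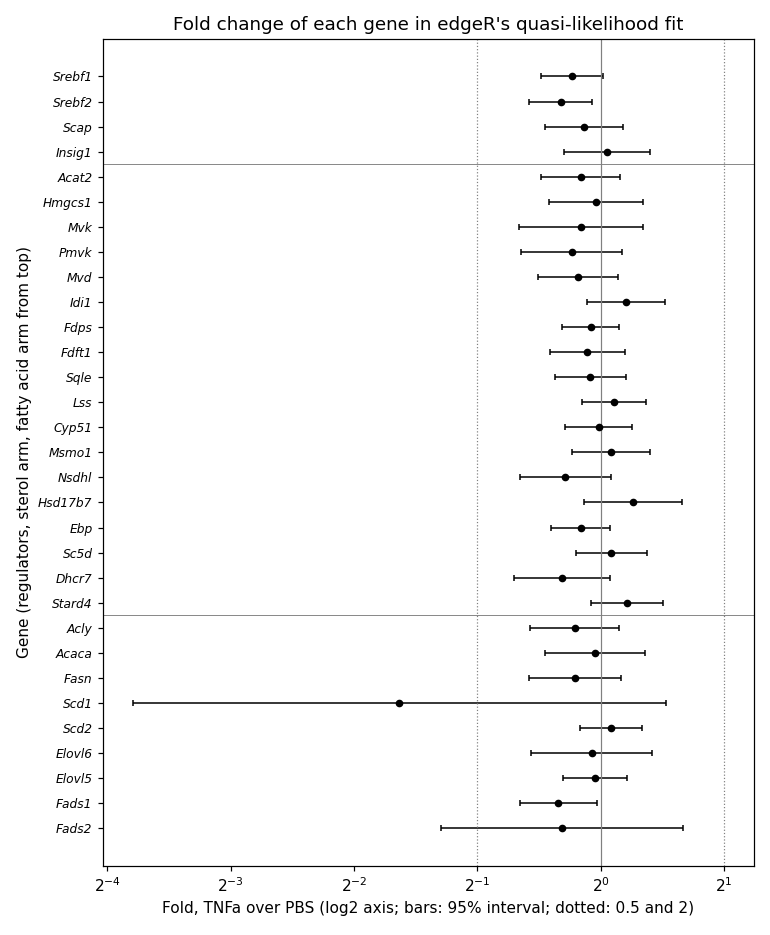
Fold change of each of the 31 genes, TNFa over PBS, on a log2 axis, with its 95% interval from edgeR's quasi-likelihood fit and dotted lines at 0.5 and 2. The intervals of Srebf2 (0.669 to 0.954) and Fads1 (0.634 to 0.980) are the ones that do not reach 1, and only Scd1 and Fads2 extend past 0.5.

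Among the regulators, Srebf2 came closest to a change. It was at 232, 264 and 211 CPM in PBS 1 to 3 and at 184, 179 and 201 CPM in TNFa 4 to 6. All 3 TNFa libraries were below all 3 PBS libraries, and the gap between the nearest pair was small beside the spread within PBS. The fold was 0.799 (95% interval 0.669 to 0.954, log2 fold change -0.32 ± 0.11, SE, adjusted p = 0.462). Adjusted p-values for Srebf2 over the 13 alternatives ran from 0.257 to 0.998, and its log2 fold change from -0.40 to -0.24, the last of each without PBS 2.

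Srebf1, the gene of SREBP-1, was at 156, 175 and 147.0 CPM with PBS and at 129, 131 and 147.1 CPM with TNFa. TNFa 6 reached the lowest PBS library, so the groups touched (log2 fold change -0.23 ± 0.11, adjusted p = 0.642). The counts are per gene and do not separate the SREBP-1a and SREBP-1c transcripts. Scap, the escort protein, was at 68.4, 85.4 and 68.0 CPM with PBS and 69.1, 58.9 and 73.7 with TNFa, overlapping but for the highest PBS and the lowest TNFa library (adjusted p = 0.840). Exons of Scap overlap those of 5830462I19Rik on the other strand, and strand use in the counting is not given in the sources used here. Insig1, the retention factor and itself a target of SREBPs, was at 73.4, 88.3 and 96.7 CPM with PBS and at 93.1, 72.7 and 102 CPM with TNFa. It showed no separation and was lowest in TNFa 5 (fold 1.04, 95% interval 0.815 to 1.32, adjusted p = 0.954). Of the 4 regulators, Srebf1, Srebf2 and Scap had lower means with TNFa and Insig1 a higher one.

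In the sterol arm 12 of 18 genes had lower and 6 higher fitted values with TNFa, with log2 fold changes from -0.31 to 0.26 and a median of -0.082. All 18 intervals lay inside 0.5 to 2. The 7 genes from acetoacetyl-CoA to farnesyl diphosphate had 6 lower and 1 higher, with a median of -0.16. They are Acat2 (-0.16 ± 0.14), the thiolase that starts the pathway, Hmgcs1 (-0.037 ± 0.17), the kinases Mvk (-0.16 ± 0.22) and Pmvk (-0.23 ± 0.18), the decarboxylase Mvd (-0.18 ± 0.15), Idi1 (0.21 ± 0.14) and Fdps (-0.081 ± 0.10), all log2 fold changes ± SE. Idi1 alone had a higher mean with TNFa, and all 7 intervals included a fold of 1. The median of the 7 was -0.081 without PBS 1 and -0.093 without PBS 2.

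The 10 genes from squalene to cholesterol divided into 6 lower and 4 higher, with a median of -0.050. Those higher were Lss (0.11 ± 0.12), which closes the sterol rings, Msmo1 (0.085 ± 0.14), which helps remove the C4 methyl groups, Hsd17b7 (0.26 ± 0.18) and Sc5d (0.088 ± 0.13), a desaturase. Those lower were Fdft1 (-0.11 ± 0.14), squalene synthase, Sqle (-0.083 ± 0.13), squalene epoxidase, Cyp51 (-0.017 ± 0.12), the C14 demethylase, Ebp (-0.16 ± 0.11), Nsdhl (-0.29 ± 0.16), which acts with Msmo1, and Dhcr7 (-0.31 ± 0.18). The segment had 5 lower and 5 higher without PBS 1, PBS 3, TNFa 5 or TNFa 6, and its median ran from -0.11 without TNFa 4 to 0.017 without PBS 3. Exons of 8 of the 31 genes overlap another gene in the table, 7 of them on the opposite strand and Fdps on the same, so some reads there may be counted for the wrong gene: Fdft1 with Ctsb, Cyp51 with Akap9, Srebf1 with Rai1, and Scap, Hmgcs1, Fdps, Lss and Elovl6 with less studied genes.

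Dhcr7, Nsdhl and Stard4 had the smallest unadjusted p-values of the sterol arm. Dhcr7 was at 26.6, 25.4 and 28.5 CPM with PBS and at 17.2, 23.3 and 24.1 CPM with TNFa. Every TNFa library was lower, TNFa 4 by far the most (fold 0.804, 95% interval 0.613 to 1.06, adjusted p = 0.695). Nsdhl was at 43.4, 42.1 and 48.2 CPM with PBS and at 41.7, 28.7 and 39.2 CPM with TNFa. Here TNFa 5 was the low library and TNFa 4 lay just under the lowest PBS value (adjusted p = 0.705). Stard4, which carries cholesterol between membranes, was at 42.2, 43.9 and 41.3 CPM with PBS and at 48.3, 54.8 and 44.7 CPM with TNFa. It was higher in each TNFa library, most in TNFa 5, the library with the lowest median of the arm (fold 1.16, 95% interval 0.946 to 1.42, adjusted p = 0.723). Fdps, the sterol arm gene with the most CPM, was at 216, 201 and 194 CPM with PBS and at 178, 203 and 196 with TNFa, so the groups overlapped.

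A pattern inside the TNFa group, described after the values were seen, cut across the comparison. Hmgcs1 was at 69.9, 76.7 and 77.3 CPM with PBS, at 84.1 and 80.8 CPM in TNFa 4 and 6, and at 53.3 CPM in TNFa 5. TNFa 4 and 6 were thus above all PBS libraries and TNFa 5 below all of them. Msmo1 had the same order, with 72.2, 74.8 and 76.04 CPM with PBS against 89.0 and 84.3 CPM in TNFa 4 and 6 and 63.2 in TNFa 5. Sc5d had it too, with 126, 124 and 136 CPM with PBS against 154 and 143 CPM and 113 in TNFa 5. This order was found in 3 of 18 sterol arm genes, 0 of 9 fatty acid genes and 3.41% of all tested genes. Idi1 was at 155, 134 and 151 CPM with PBS, at 182 and 191 CPM in TNFa 4 and 6, and at 135 in TNFa 5, within the PBS range. TNFa 5 was below all 3 PBS libraries for 9 of 18 sterol arm genes and 4 of 9 fatty acid genes, against 35.3% of all tested genes. The part of the features that set TNFa 5 apart in these values was not tested.

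Without TNFa 5, 0 of the 31 genes passed, with a smallest adjusted p of 0.184. At an unadjusted p under 0.05 there were then 2 higher, Idi1 and Sc5d (5.23% of all genes tested without it), and 4 lower, Srebf2, Fads1, Ebp and Scd1 (5.56%). Idi1 stood at 1.27-fold (95% interval 1.10 to 1.47, adjusted p = 0.184) and Sc5d at 1.15-fold (1.00 to 1.33, adjusted p = 0.461). Hmgcs1 changed side, from a fold of 0.975 to 1.10 (95% interval 0.941 to 1.29). The sterol arm then had 10 of 18 genes lower and a median log2 fold change of -0.038, in place of 12 and -0.082. The median was also smaller without PBS 1, at -0.041.

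**Figure D3:**
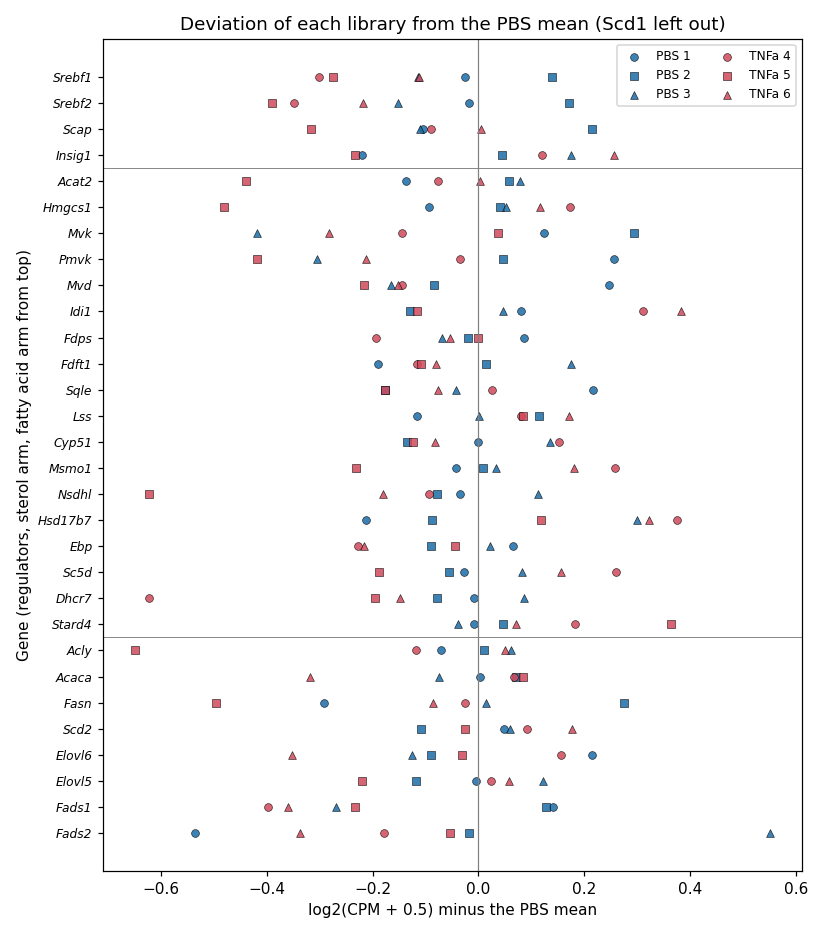
Deviation of log2(CPM + 0.5) in each library from the mean of the 3 PBS libraries (blue, PBS 1 to 3; red, TNFa 4 to 6) for 30 genes; Scd1, at -2.09 in TNFa 6, is left out so that the other genes can be read. TNFa 5 (red squares) lies at -0.48 for Hmgcs1, -0.62 for Nsdhl and -0.65 for Acly, and at 0.36 for Stard4.

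In the fatty acid arm 8 of 9 genes had lower fitted values with TNFa and 1, Scd2, a higher one, with a median log2 fold change of -0.21. The median was smaller in size when some libraries were left out, at -0.091 without TNFa 5, -0.12 without PBS 2 and -0.14 without PBS 3. Fads1 was at 81.6, 80.9 and 61.3 CPM with PBS and at 56.0, 62.8 and 57.5 CPM with TNFa. PBS 3 lay among the TNFa libraries, and the other PBS libraries were well above them (fold 0.788, 95% interval 0.634 to 0.980, adjusted p = 0.544). Fads2, its neighbour on chromosome 19, was at 1.46, 2.31 and 3.67 CPM with PBS and 2.02, 2.24 and 1.75 with TNFa, a wide spread at a low level (adjusted p = 0.889).

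Scd1 had the lowest counts of the 31 genes. It was at 2.01, 1.67 and 1.27 CPM with PBS and at 0.672, 0.934 and 0 CPM with TNFa, from 59, 49 and 40 counts and 17, 25 and 0 counts. A count of 0 in TNFa 6 allows up to 0.0908 CPM (3 counts, counting error only). The groups did not overlap, but the interval ran from 0.0721 to 1.44 and the adjusted p was 0.719. Scd2, the abundant desaturase of the pair, was at 86.5, 77.6 and 87.3 CPM with PBS and at 89.3, 82.3 and 94.7 with TNFa (fold 1.06, 95% interval 0.888 to 1.26, adjusted p = 0.887).

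The enzymes that make palmitate and lengthen it overlapped between groups. Acly was at 287, 304 and 314 CPM with PBS and at 278, 192 and 312 CPM with TNFa. Its lower mean with TNFa rested on TNFa 5, and without that library the fold was 0.977 (95% interval 0.854 to 1.12) in place of 0.864 (0.673 to 1.11). Fasn was at 200, 296 and 247 CPM with PBS and 240.0, 173 and 230.0 CPM with TNFa, with wide overlap (adjusted p = 0.787). Acaca had a log2 fold change of -0.047 ± 0.18, Elovl6, which takes palmitate to stearate, of -0.072 ± 0.22, and Elovl5 of -0.044 ± 0.12. These last 3 changed side when 1 library or another was left out.

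The arms were then set side by side. The median log2 fold change was -0.082 over the 18 sterol genes, -0.21 over the 9 fatty acid genes and -0.18 over the 4 regulators, against 0.0047 over all tested genes. The median fatty acid gene was Fasn, and Scd1 and Fads2, the genes with the fewest counts, both lay below it. With Scd1 and Fads2 left out, the median gene was Elovl6 at -0.072, near the median of the sterol arm. The median of the regulators was -0.091 without PBS 2. By library, the median deviation of the sterol arm from the PBS mean was -0.0037, -0.15 and -0.065 in TNFa 4, 5 and 6, and that of the fatty acid arm -0.026, -0.22 and -0.32. By this median the sterol arm was lowest in TNFa 5 and the fatty acid arm in TNFa 6. In TNFa 4 both were near the PBS mean. The fatty acid genes were divided in TNFa 6: the median gene was Acaca at -0.32 and the next higher was Fasn at -0.086. Without Scd1 and Fads2, the median gene was Fasn in TNFa 6 and Elovl5, at -0.22, in TNFa 5. The fatty acid arm was then lowest in TNFa 5, as the sterol arm was. The summed level of the fatty acid arm was 876, 963 and 945 CPM with PBS and 887, 704 and 913 with TNFa, and that of the sterol arm 1430.0, 1360.0 and 1426 against 1452, 1278 and 1436. In TNFa 5 both sums were below all PBS libraries, and in TNFa 4 and 6 that of the sterol arm was just above them. No p is given for the difference between arms, since their members were chosen with earlier results of these data known.

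**Figure D4:**
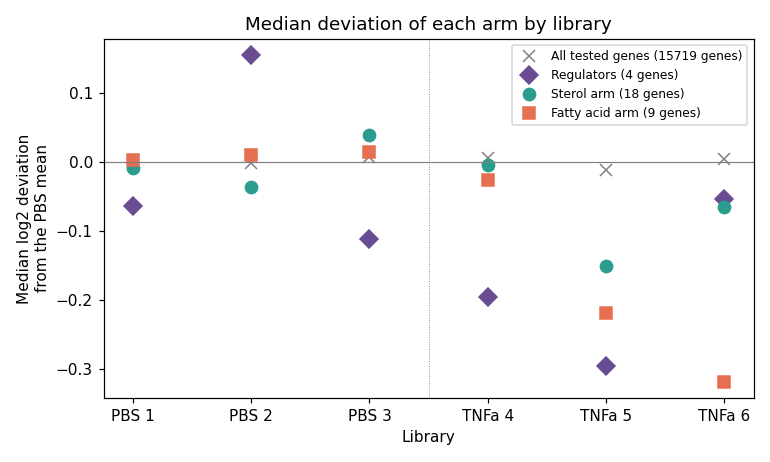
Median deviation of log2(CPM + 0.5) from the PBS mean in each library for the regulators (diamonds), sterol arm (circles), fatty acid arm (squares) and all tested genes (crosses). All tested genes stay between -0.012 and 0.0079, the sterol arm is lowest in TNFa 5 at -0.15 and the fatty acid arm in TNFa 6 at -0.32. Without Scd1 and Fads2, the genes with the fewest counts, the fatty acid median would be -0.086 in TNFa 6 and -0.22 in TNFa 5.

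Other genes of the pathway were read from 6 lists with 76 genes, of which 65 were tested. None of the 65 passed in the edgeR test (DESeq2 and limma-voom called 0 as well), and 1 was higher and 7 lower at an unadjusted p under 0.05, or 1.54% and 10.8% of the 65 beside the 3.68% and 4.63% of all tested genes. The 7 became 3 without PBS 1, 2 without PBS 2, 9 without PBS 3, 6 without TNFa 4 and 5 without TNFa 6. Over all genes tested in these fits the share lower was 3.123%, 2.602%, 4.198%, 4.688% and 4.928%. The falls without PBS 1 and PBS 2 thus came with a lower background. The 1 became 2 without PBS 2 or PBS 3 and 6 without TNFa 5. With upper-quartile scaling it became 3, and with a filter at 1 CPM 0. The share higher in these fits was 2.614%, 3.823%, 5.23%, 4.339% and 4.38%. The 7 lower included Por, the reductase that feeds electrons to CYP51 and squalene epoxidase, Tm7sf2, a sterol reductase, Mid1ip1, an activator of acetyl-CoA carboxylase, and Lpcat3, a phospholipid acyltransferase. Tm7sf2 and Mid1ip1 are named after their values were seen. Fitted values were lower for 8 of 9 further sterol synthesis genes (median -0.22), 9 of 12 genes of sterol uptake and transport (-0.12), 9 of 15 of fatty acid synthesis (-0.039), 8 of 12 of lipid assembly (-0.044), 4 of 10 of SREBP processing (0.054) and 3 of 7 of storage, efflux and LXR signalling (0.044).

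Among sterol genes outside the 31, Por was at 191 ± 6.87 CPM with PBS and 148 ± 19.5 with TNFa (fold 0.777, 95% interval 0.646 to 0.934, adjusted p = 0.421). It was lower in all 3 TNFa libraries than in any PBS library and missed the threshold over all genes. Lbr, a reductase that also anchors chromatin, was at 528 ± 26.9 and 412 ± 119 CPM, with a wide spread in the TNFa group. Lrp8, Npc2 and Osbp, which take up, export or sense sterol, had folds of 0.957, 0.916 and 0.896, and Mylip, a ubiquitin ligase induced by LXR, of 0.793 (0.475 to 1.33).

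Genes of sterol storage, efflux and LXR signalling gave no common direction. The exporters Abca1 and Abcg1 had log2 fold changes of 0.22 ± 0.36 and -0.39 ± 0.22, Nr1h2 (LXR-beta) of -0.33 ± 0.17 and Soat1, which esterifies cholesterol, of 0.044 ± 0.16. Nr1h3 (LXR-alpha), named after its values were seen, was the 1 gene higher at an unadjusted p under 0.05. It was at 0, 0.0680 and 0.0317 CPM with PBS and 0.593, 0.710 and 0.393 CPM with TNFa, too few counts for a fold (adjusted p = 0.273). In SREBP processing, Aup1 was at 221 ± 5.82 and 211 ± 6.49, the site-1 protease gene Mbtps1 at 129 ± 8.74 and 110 ± 15.9, and Insig2 at 30.8 ± 5.39 and 31.5 ± 3.38. The 95% intervals of the fold were 0.786 to 1.34 for Insig2, whose groups overlapped, and 0.824 to 1.10 for Aup1, whose groups did not.

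Of the further fatty acid genes, Hacd3, a dehydratase of the elongation cycle, was at 216 ± 6.25 and 256 ± 35.3 CPM (fold 1.18, 95% interval 0.985 to 1.42). Tecr, the reductase of that cycle, was at 229 ± 16.4 and 227 ± 7.65 CPM and Elovl1, an elongase of very long chains, at 161 ± 16.6 and 138 ± 10.1. The NADPH source Me1 had a fold of 1.09 (0.892 to 1.32) and Acss2, which makes acetyl-CoA from acetate, of 0.778 (0.523 to 1.16). In lipid assembly Lpcat3 was at 328 ± 4.99 CPM with PBS and 275 ± 20.3 with TNFa (fold 0.839, 0.721 to 0.977, adjusted p = 0.511), while the acyl-CoA synthetases Acsl5 and Acsl4 had folds of 0.963 and 1.10.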

How the data were processed

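Libraries were made from total RNA of sorted ILC2s, per the labels' protocols. The authors deposited estimated counts per gene from Partek's expectation-maximization quantification, as the deposited table's name says, not scaled between libraries; 41.7% of values were whole within 0.01. The submitters' processing notes list CASAVA 1.8.2, STAR and mm10; the sources used here do not give strand use, annotation release or gene filter. Estimated counts were rounded and tested with edgeR 4.0.16 (R 4.3.3): filterByExpr (minimum count 10, minimum total 15; 15719 genes), TMM scaling, robust quasi-likelihood test, Benjamini-Hochberg adjustment over all tested genes, threshold 0.05. SE and 95% intervals came from the fit. CPM are TMM-scaled. TPM used the union of exons in GENCODE M21, where 27 of the 31 genes had the same position. Totals of 25089415 to 32487004 counts make counting error small for all of the 31 genes but Scd1 and Fads2. Some genes outside the 31, such as Nr1h3 and Thy1, also had few counts. The spread between 3 libraries limits the test.

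The scripts were tested on simulated data. All 31 genes were named, with per-library values for the regulators and for the most abundant gene and the 3 smallest p-values of each arm; of other lists, the 3 most abundant genes and a fixed set; of marker lists, the 2 most abundant. Other members' per-library values, and marker genes outside this rule, were chosen after values were seen. Some genes that the rule names are not reported here. The genes and lists were chosen with earlier results of these data known. Alternatives were other scalings and filters, DESeq2 1.42.0, limma-voom (limma 3.58.1) on unrounded counts, a fit without robust estimation, and leaving out each library.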

Additional observations from a re-analysis of the deposited data

How the results depend on the processing

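Over the 13 alternatives, 0 of the 31 genes and 0 of the other pathway genes passed, with a smallest adjusted p of 0.184 among the 31. Of the 31 genes, 21 had the same sign in every alternative. The count over all genes, 16, was 255 with DESeq2, 3 with no filter and 1 to 67 when a library was left out, most without TNFa 5. The median log2 fold change of the fatty acid arm ran from -0.26 to -0.091 when a library was left out. With upper-quartile scaling Cyp51 stood at 0.014 and Tecr at 0.022. Log2 fold changes that crossed 0 when a library was left out ran from -0.057 to 0.18 for Insig1, -0.16 to 0.14 for Hmgcs1, -0.17 to 0.036 for Sqle, -0.11 to 0.052 for Cyp51, -0.015 to 0.22 for Msmo1, -0.0099 to 0.21 for Sc5d, -0.12 to 0.075 for Acaca, -0.20 to 0.058 for Elovl6, -0.10 to 0.037 for Elovl5 and -0.58 to 0.082 for Fads2. Among other pathway genes they ran from -0.020 to 0.47 for Abca1, -0.070 to 0.18 for Insig2, -0.15 to 0.013 for Lrp8, -0.37 to 0.086 for Osbp, -0.081 to 0.15 for Soat1, -0.071 to 0.027 for Tecr and -0.17 to 0.075 for Acsl5. Leaving out a library also leaves the test fewer samples; beyond that the cause was not tested. Values of the sterol pathway segments and counts of other pathway genes under the alternatives were added after seeing the data. No paired analysis was possible because the groups share no replicate number.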
